A study of Homo sapiens with 6 samples.

Results

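The 46 genes described here encode regulators of mitosis other than kinesins and centromere proteins. They were chosen by gene symbol from a named list of mitotic cyclins, kinases, checkpoint proteins, spindle and cytokinesis proteins, condensins and cell cycle transcription factors. All 46 were found, among 21503 genes with deposited counts, and all 46 were among the 19430 genes that passed the filter on low counts and were tested. RNA came from the established human bladder cancer line UMUC3, placed orthotopically in the bladders of C57 nude mice and left there for 14 days. The tumour cells carried either a knockdown of GANAB (GANAB knockdown, 3 libraries) or the control genotype (control, 3 libraries). GANAB codes for the catalytic subunit of glucosidase II, which trims glucose from newly made N-glycans in the endoplasmic reticulum. The mouse host was the same for both groups, and nude mice lack most T cells but keep other immune and stromal cells. The labels give neither the method of the knockdown nor the number of clones or animals behind a library. Nor do they say whether replicate libraries stem from different mice, so the p-values reflect the spread between these samples alone, and that spread may be technical.

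Mitosis divides the copied chromosomes between daughter cells. The kinase CDK1, bound to a cyclin, starts it, and a checkpoint at the kinetochores holds it until every chromosome is attached to the spindle. The anaphase-promoting complex (APC/C) then marks cyclin B and securin for destruction, sister chromatids separate and the cell is split. Most of these genes are transcribed in a wave late in the cell cycle, driven by B-MYB and FOXM1 together with the MuvB complex, so cells that are not cycling hold little of their RNA.

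The knockdown was checked first. GANAB stood at 231, 238 and 231 CPM in knockdown libraries 1, 2 and 3, against 685, 825 and 661 CPM in control libraries 1, 2 and 3. CPM are read counts scaled to a fixed library size, here after TMM normalization, which corrects for differences in library composition. GANAB fell, with a log2 fold change of -1.63 (SE 0.141, edgeR quasi-likelihood test with Benjamini-Hochberg adjustment, adjusted p = 0.00239). The knockdown libraries held 36619300 to 40039600 counts and the control libraries 11737800 to 36381200. Control library 1 stood apart, with 29.2% of its counts in the mitochondrial ribosomal RNA genes, against 2.11% to 2.43% in the knockdown libraries and 0.928% to 1.10% in the other control libraries. The control libraries also varied more, with a biological coefficient of variation of 10.7% in the knockdown group and 52.3% in the control group. The edgeR fit nevertheless used a single spread per gene for both groups, and the p-values and SE rest on it.

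Of the 46 mitotic regulators 35 fell in the knockdown libraries, 0 rose and 11 did not pass (edgeR adjusted p under 0.05). Over all 19430 genes 3.72% were called lower and 4.59% higher in the same fit. Without the adjustment 42 of the 46 were lower and 1 was higher at an edgeR p under 0.05. At that threshold 2373 of all 19430 genes were lower and 2676 higher. The DESeq2 Wald test called 42 of the 46 lower and 1 higher. Of the 21045 genes tested with DESeq2, 1768 (8.4%) were lower and 1908 higher. The genes that fell did so by 1.61-fold (RACGAP1) to 3.03-fold (DLGAP5), with a median of 2.30-fold, and 30 of the 35 were at least 2-fold lower. The median log2 fold change of the 46 genes was -1.14, against 0.03 for all tested genes. By CPM, 44 of the 46 genes had every knockdown library below every control library, a pattern that 15.7% of all tested genes showed. The exceptions were WEE1, whose knockdown values all lay above the control values, and CDC25B, whose groups overlapped. By TPM, which is corrected for transcript length, 35 of the 46 showed that pattern. The share over all genes was not counted on that scale. In bulk RNA, fewer cells in mitosis and less of these transcripts per cell cannot be told apart.

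The number of calls changed when single libraries were left out. When knockdown library 1, 2 or 3 was omitted, the number of the 46 genes called lower was 0, 5 or 1, while the median log2 fold change stayed between -1.16 and -1.14. The 5 were TTK, BUB1, CDC20, DLGAP5 and NCAPH, and the 1 was TTK. Without control library 1, 2 or 3 it was 26, 41 or 38, with medians of -1.19, -0.91 and -1.33. Of all tested genes, 0.0452%, 0.165% or 0.0901% were called lower without knockdown library 1, 2 or 3. Without control library 1, 2 or 3 that share was 3.26%, 13.8% or 4.28%. With the mean level of 32 host markers added as covariate, 0 of the 46 passed, with a median of -0.94, and 1 of the 19430 genes passed at all. That score, a mean of log2 CPM, was 3.07, 3.19 and 3.27 in knockdown libraries 1, 2 and 3. In control libraries 1, 2 and 3 it was 2.85, 1.62 and 1.67. Every knockdown score thus lay above every control score, so the fit can hardly tell the score from the knockdown. The markers are those of fibroblasts, smooth muscle, endothelium and macrophages. They were read from genes counted as human, so an origin in the mouse host was not shown.

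**Figure D1:**
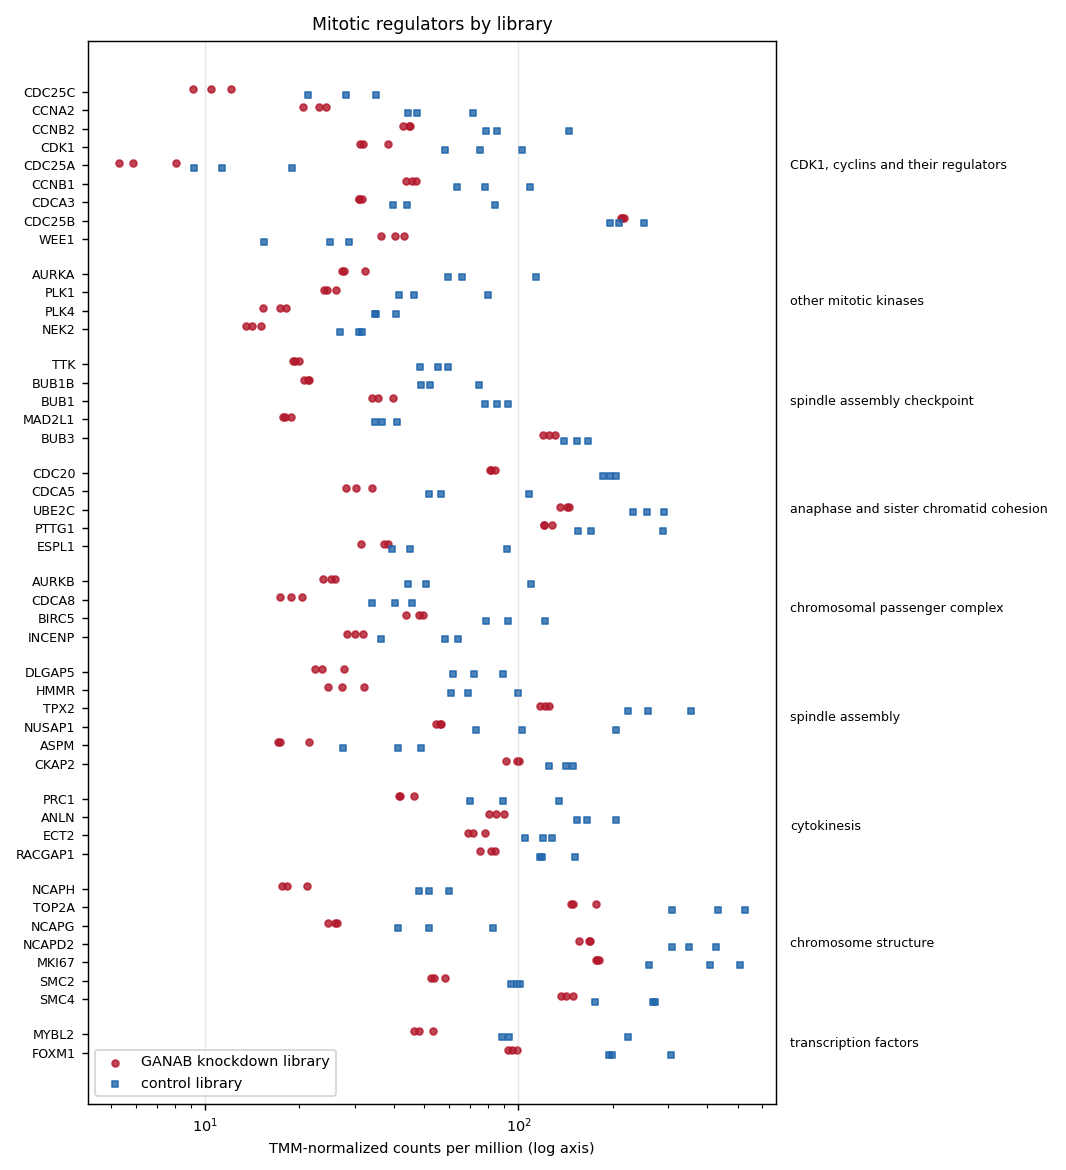
TMM-normalized CPM (log axis) of the 46 genes in each library, grouped by role and ordered by log2 fold change within a role; circles are GANAB knockdown libraries and squares control libraries. The knockdown libraries lie close together and left of the control libraries for 44 of the 46 genes, with WEE1 to the right and CDC25B overlapping.

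Promoter sequences are shown for genes of several roles because transcription of many mitotic genes is known to depend on a pair of short elements, the cell cycle homology region (CHR), whose core is TTTGAA and which binds MuvB, and the CCAAT box, which binds NF-Y. RefSeq promoter windows (GRCh38.p14), from 250 bases before to 50 bases after an annotated start, were available for 37 of the 46 genes, 51 windows in all because some genes have several starts, and windows of 1 gene can share bases. The 250 bases before the start are printed 5′ to 3′ on the gene's own strand, with capitals marking TTTGAA or its reverse complement TTCAAA and CCAAT or its reverse complement ATTGG. CDC20 (chr1:43358731-43358980, plus strand), DLGAP5 (chr14:55191586-55191835, minus strand), CCNB2 (chr15:59104896-59105145, plus strand) and PLK1 (chr16:23678639-23678888, plus strand) fell and held both elements. MYBL2 (chr20:43666864-43667113, plus strand) fell and held neither. CDC25B (chr20:3796060-3796309, plus strand) did not pass; of its 4 windows 0 held TTTGAA and 2 held CCAAT, and a window with CCAAT is shown.
CDC20: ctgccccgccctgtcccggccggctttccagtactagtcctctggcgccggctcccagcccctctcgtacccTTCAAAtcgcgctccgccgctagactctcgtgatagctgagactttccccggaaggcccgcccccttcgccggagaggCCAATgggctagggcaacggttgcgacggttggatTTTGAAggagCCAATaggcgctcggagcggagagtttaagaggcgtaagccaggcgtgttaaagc
DLGAP5: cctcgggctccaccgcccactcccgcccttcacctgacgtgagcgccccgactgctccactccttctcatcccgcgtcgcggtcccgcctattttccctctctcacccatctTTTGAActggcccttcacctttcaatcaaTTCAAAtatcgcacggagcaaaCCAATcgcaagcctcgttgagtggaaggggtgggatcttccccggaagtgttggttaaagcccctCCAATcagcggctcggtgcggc
CCNB2: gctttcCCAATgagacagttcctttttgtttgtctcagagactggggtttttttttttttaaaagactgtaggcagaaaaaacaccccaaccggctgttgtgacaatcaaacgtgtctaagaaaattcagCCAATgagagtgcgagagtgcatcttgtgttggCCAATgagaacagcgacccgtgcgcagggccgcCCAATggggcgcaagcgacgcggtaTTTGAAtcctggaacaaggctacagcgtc
PLK1: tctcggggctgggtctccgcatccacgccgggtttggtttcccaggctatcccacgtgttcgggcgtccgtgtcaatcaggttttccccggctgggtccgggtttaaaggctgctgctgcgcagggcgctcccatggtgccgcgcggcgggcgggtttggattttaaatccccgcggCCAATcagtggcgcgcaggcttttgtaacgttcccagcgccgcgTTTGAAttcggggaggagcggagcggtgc
MYBL2: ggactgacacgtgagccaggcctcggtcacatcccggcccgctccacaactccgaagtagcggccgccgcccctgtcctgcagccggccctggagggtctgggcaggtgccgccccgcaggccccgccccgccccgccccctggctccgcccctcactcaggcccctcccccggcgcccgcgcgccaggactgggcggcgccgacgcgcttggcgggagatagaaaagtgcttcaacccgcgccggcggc
CDC25B: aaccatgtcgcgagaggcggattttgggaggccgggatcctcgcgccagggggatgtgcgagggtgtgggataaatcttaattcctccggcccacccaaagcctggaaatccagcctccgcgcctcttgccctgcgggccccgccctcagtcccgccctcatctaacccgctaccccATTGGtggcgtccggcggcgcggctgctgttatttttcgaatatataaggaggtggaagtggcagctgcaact

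Both elements were common in the promoters of the mitotic regulators. Matches on both strands were counted over the 300 bases; a CCAAT match can share bases with one on the other strand, and its last base with a match of the other element. TTTGAA was found in 28 of the 51 windows (54.9%), against 15.2% of 35116 RefSeq windows. CCAAT was found in 34 windows (66.7%), against 34.6%. Both were found in 21 windows (41.2%), against 5.9%. In 40 windows of DNA replication genes, which are also transcribed in cycling cells but earlier, TTTGAA was in 2.5% and CCAAT in 57.5%. The matches also had preferred places. In the last 50 bases before the start, TTTGAA began in 29.4% of the mitotic windows, against 2.56% of all windows. Between 51 and 100 bases before it, CCAAT began in 47.1%, against 12.9%. In CCNB2 and PLK1 the first base of TTTGAA lay 29 bases before the start, with CCAAT at 54, 87, 120 and 244 bases before it in CCNB2 and at 73 in PLK1. Windows of genes that fell held TTTGAA in 62.2% of 37 and windows of genes that did not pass in 35.7% of 14, of which CDC25B supplied 4. Counted per gene, with a match in any window, the shares were closer, at 71.4% of 28 genes that fell and 55.6% of 9 that did not pass. Neither pair of shares was tested. A match is a run of letters and not a shown binding site.

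**Figure D2:**
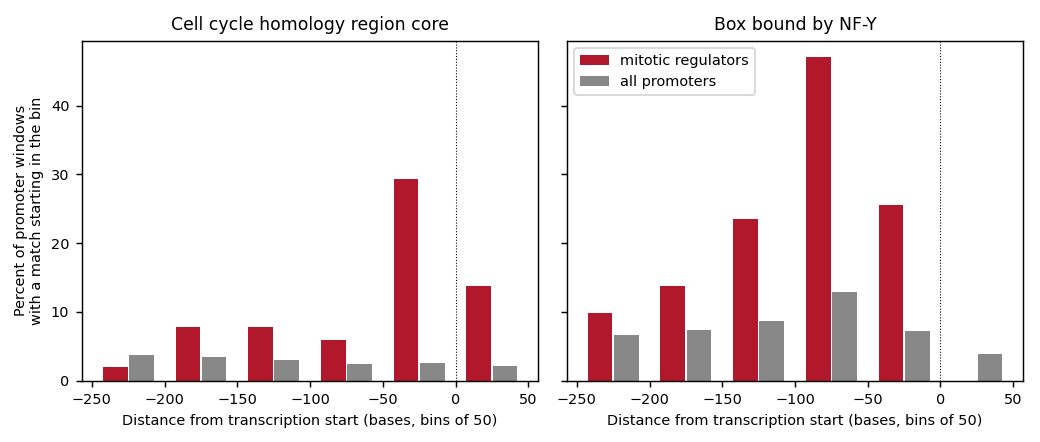
Percent of promoter windows with a match beginning in each 50-base bin, by distance from the transcription start, for the core of the cell cycle homology region (left) and the box bound by NF-Y (right); dark bars are the 51 windows of mitotic regulators and grey bars all 35116 windows. The mitotic windows peak at 29.4% in the last 50 bases before the start for the first element and at 47.1% in the bin of 51 to 100 bases before it for the second.

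Of the 9 genes for CDK1, its cyclins and their regulators, 5 fell, and the median log2 fold change was -1.03. CDK1, the kinase that drives entry into mitosis, had 31.2, 38.4 and 31.8 CPM in knockdown libraries 1, 2 and 3, against 75.1, 103 and 58.4 CPM in control libraries 1, 2 and 3. All knockdown values lay below all control values, and CDK1 fell, with a log2 fold change of -1.22 (SE 0.222, edgeR adjusted p = 0.0213). CCNA2, or cyclin A2, which works with CDK2 in S phase and with CDK1 in early mitosis, had 20.5, 24.3 and 23.1 CPM in knockdown and 47.6, 71.5 and 44.3 CPM in control libraries. CCNA2 fell, with a log2 fold change of -1.27 (SE 0.211, edgeR adjusted p = 0.0164). The B-type cyclins, the partners of CDK1 in mitosis, both fell. CCNB2 had 42.7, 44.8 and 44.9 CPM in knockdown libraries against 85.2, 145 and 78.9 CPM in control libraries, a 2.33-fold decrease, and CCNB1 was 1.84-fold lower. Control library 2 was the highest for each of CDK1, CCNA2, CCNB1 and CCNB2.

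The 3 CDC25 phosphatases, which remove the inhibitory phosphates from CDK1 and related kinases, gave unlike values. CDC25C, the form most closely tied to mitotic entry, had 10.5, 12.1 and 9.14 CPM in knockdown libraries against 21.4, 35.2 and 28.2 CPM in control libraries. The groups did not overlap, and CDC25C fell, with a log2 fold change of -1.42 (SE 0.231, edgeR adjusted p = 0.0153). CDC25A, which also acts at entry into S phase, had 5.91, 8.07 and 5.32 CPM in knockdown libraries against 11.3, 18.9 and 9.22 CPM in control libraries. Its knockdown CPM were all below its control CPM, but the log2 fold change of -1.03 did not pass (SE 0.326, edgeR adjusted p = 0.0935). CDC25B, which starts CDK1 activation at the centrosomes, had 217, 213 and 214 CPM in knockdown libraries against 209, 251 and 196 CPM in control libraries. Its groups overlapped, with a log2 fold change of -0.03 (SE 0.140, edgeR adjusted p = 0.929), and its sign changed between settings. By TPM, which is corrected for transcript length, CDC25B was the third most abundant of the 46 genes in knockdown libraries and the seventh in control libraries.

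WEE1, the kinase that places the inhibitory phosphate on CDK1 and so opposes CDC25, was the only one of the 46 with a positive log2 fold change. It had 36.4, 40.3 and 43.1 CPM in knockdown libraries 1, 2 and 3, against 24.98, 15.5 and 28.9 CPM in control libraries 1, 2 and 3. The groups did not overlap, and control library 2, the highest control for most of the other genes, was the lowest for WEE1. The log2 fold change of 0.79 did not pass (SE 0.236, edgeR adjusted p = 0.0816). It passed in 5 of the 21 alternative settings, among them DESeq2 (adjusted p = 0.0236) and edgeR without control library 2 (log2 fold change 0.58, adjusted p = 0.00987), and its sign was positive in every setting run. CDCA3, a part of the ubiquitin ligase that removes WEE1 at mitotic entry, had 30.9, 30.9 and 31.7 CPM in knockdown libraries against 44.0, 84.4 and 39.8 CPM in control libraries. Its groups did not overlap by CPM, but by TPM control library 1 lay below every knockdown library. The log2 fold change of -0.85 for CDCA3 did not pass (SE 0.283, edgeR adjusted p = 0.108).

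The other 4 mitotic kinases all fell, with a median log2 fold change of -1.15. PLK4, which starts centriole duplication, had 17.3, 15.3 and 18.1 CPM in knockdown libraries against 40.6, 34.96 and 35.2 CPM in control libraries, and both groups were tight. PLK4 fell, with a log2 fold change of -1.13 (SE 0.152, edgeR adjusted p = 0.00909). NEK2, which helps to part the centrosomes, had 15.0, 13.5 and 14.1 CPM in knockdown libraries against 27.0, 31.8 and 30.9 CPM in control libraries. NEK2 fell, with a log2 fold change of -1.07 (SE 0.153, edgeR adjusted p = 0.0112). AURKA, or Aurora A, which matures centrosomes and builds the spindle, had 27.3, 27.8 and 32.4 CPM in knockdown libraries against 65.9, 113 and 59.4 CPM in control libraries. AURKA fell, with a log2 fold change of -1.45 (SE 0.257, edgeR adjusted p = 0.0196), with control library 2 far above the other controls. PLK1, which acts at many steps from mitotic entry to cytokinesis, was 2.26-fold lower, with the same high control library.

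Of the 5 spindle assembly checkpoint genes 4 fell, with a median of -1.23. TTK (chr6:80003887-80042527, plus strand, GRCh38), or MPS1, the kinase that begins the checkpoint signal, had 19.0, 19.9 and 19.4 CPM in knockdown libraries 1, 2 and 3, against 59.4, 48.6 and 55.2 CPM in control libraries 1, 2 and 3. The lowest control value was more than 2-fold above the highest knockdown value. TTK fell, with a log2 fold change of -1.48 (SE 0.140, edgeR adjusted p = 0.00318), the smallest adjusted p of the 46, and it passed in 5 of the 6 fits with a library omitted. BUB1, the kinase that recruits checkpoint proteins to the kinetochore, had 34.0, 39.9 and 35.6 CPM in knockdown libraries against 92.8, 85.7 and 77.9 CPM in control libraries. BUB1 fell, with a log2 fold change of -1.23 (SE 0.138, edgeR adjusted p = 0.00513). BUB1B, or BubR1, a part of the complex that inhibits the APC/C, had 20.7, 21.3 and 21.4 CPM in knockdown libraries against 48.7, 74.9 and 52.3 CPM in control libraries. BUB1B fell, with a log2 fold change of -1.47 (SE 0.191, edgeR adjusted p = 0.00825); the annotation also places a read-through gene, BUB1B-PAK6, over it on the same strand. MAD2L1, or MAD2, which captures CDC20, was 2.06-fold lower. BUB3, the adaptor that brings BUB1 and BubR1 to kinetochores, did not pass, with 119, 131 and 125 CPM in knockdown libraries against 139.6, 154 and 167 CPM in control libraries. Its groups did not overlap by CPM, but by TPM control library 1 lay below every knockdown library. The log2 fold change of BUB3 was -0.30 (SE 0.129, edgeR adjusted p = 0.199). BUB3 was also the most abundant checkpoint gene by TPM, at 103 ± 2.28 TPM in knockdown and 114 ± 34.0 TPM in control libraries (SD, n = 3 each).

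Of the 5 genes of anaphase onset and sister chromatid cohesion 3 fell, with a median of -0.88. CDC20 (chr1:43358955-43363203, plus strand, GRCh38), the activator of the APC/C, had 81.7, 81.3 and 84.3 CPM in knockdown libraries against 196, 205 and 186 CPM in control libraries. Both groups were tight, and CDC20 fell, with a log2 fold change of -1.25 (SE 0.119, edgeR adjusted p = 0.00325). UBE2C, the ubiquitin-conjugating enzyme of the APC/C, had 145, 136 and 142 CPM in knockdown libraries against 232, 291 and 257 CPM in control libraries. UBE2C fell, with a log2 fold change of -0.88 (SE 0.136, edgeR adjusted p = 0.0139). CDCA5, or sororin, which protects cohesin on replicated chromosomes, had 28.2, 30.4 and 34.0 CPM in knockdown libraries against 56.5, 108 and 51.9 CPM in control libraries. CDCA5 fell, with a log2 fold change of -1.22 (SE 0.285, edgeR adjusted p = 0.0428). Separase and its inhibitor did not pass. PTTG1, or securin, had 128, 120.5 and 121 CPM in knockdown libraries against 155, 290.1 and 170.4 CPM in control libraries, a log2 fold change of -0.74 (SE 0.241, edgeR adjusted p = 0.102). ESPL1, or separase, the protease that cleaves cohesin, had 37.2, 38.4 and 31.4 CPM in knockdown libraries against 45.0, 92.2 and 39.6 CPM in control libraries, a log2 fold change of -0.72 (SE 0.316, edgeR adjusted p = 0.200). For both, the groups did not overlap by CPM and control library 2 lay far above the other controls. By TPM, control library 1 lay below every knockdown value for PTTG1 and within the knockdown range for ESPL1.

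Of the 4 genes of the chromosomal passenger complex, which corrects faulty attachments of chromosomes to the spindle, 3 fell, with a median of -1.07. CDCA8, or borealin, had 17.4, 20.3 and 18.8 CPM in knockdown libraries against 40.4, 45.6 and 34.1 CPM in control libraries. CDCA8 fell, with a log2 fold change of -1.09 (SE 0.165, edgeR adjusted p = 0.0130). BIRC5, or survivin, which targets the complex to centromeres, had 48.1, 43.6 and 49.6 CPM in knockdown libraries against 79.1, 122 and 92.3 CPM in control libraries. BIRC5 fell, with a log2 fold change of -1.05 (SE 0.182, edgeR adjusted p = 0.0185). AURKB, or Aurora B, the kinase of the complex, had 25.2, 26.0 and 23.9 CPM in knockdown libraries against 50.6, 109.9 and 44.4 CPM in control libraries, and control library 2 was more than 2-fold above each other control. AURKB fell, with a log2 fold change of -1.45 (SE 0.336, edgeR adjusted p = 0.0419). INCENP, the scaffold, had 31.8, 30.1 and 28.4 CPM in knockdown libraries against 64.3, 58.3 and 36.4 CPM in control libraries. Its groups did not overlap by CPM, and its log2 fold change of -0.82 did not pass (SE 0.219, edgeR adjusted p = 0.0614).

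Of the 6 spindle assembly genes 4 fell, with a median of -1.20. DLGAP5 (chr14:55148112-55191678, minus strand, GRCh38), or HURP, which stabilises the microtubule fibres that reach the kinetochores, had 22.4, 27.8 and 23.6 CPM in knockdown libraries against 72.4, 89.4 and 61.9 CPM in control libraries. DLGAP5 fell, with a log2 fold change of -1.60 (SE 0.180, edgeR adjusted p = 0.00516), the most negative change of the 46 genes. HMMR, a microtubule-binding protein of the spindle poles, had 27.4, 32.0 and 24.7 CPM in knockdown libraries against 68.8, 99.98 and 60.7 CPM in control libraries. HMMR fell, with a log2 fold change of -1.45 (SE 0.217, edgeR adjusted p = 0.0129); an antisense gene overlaps it, and whether strand was used in counting is not stated. TPX2, which activates Aurora A and nucleates microtubules, had 117, 125 and 121 CPM in knockdown libraries against 259, 355 and 224 CPM in control libraries. TPX2 fell, with a log2 fold change of -1.20 (SE 0.189, edgeR adjusted p = 0.0141). ASPM, which acts at the spindle poles, was 2.11-fold lower. NUSAP1, which bundles spindle microtubules, had 54.5, 56.3 and 56.7 CPM in knockdown libraries against 102, 205 and 73.3 CPM in control libraries. Its log2 fold change of -1.19 was close to that of TPX2 but did not pass (SE 0.348, edgeR adjusted p = 0.0784), with controls that spread almost 3-fold. CKAP2, a microtubule-associated protein of the spindle, had 91.5, 100.3 and 98.9 CPM in knockdown libraries against 142, 149 and 126 CPM in control libraries. Its log2 fold change was -0.52 (SE 0.129, edgeR adjusted p = 0.0507), just outside the threshold, while MYBL2 lay just inside it.

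All 4 cytokinesis genes fell, with a median of -0.86. ANLN, or anillin, which organises the contractile ring, had 80.5, 84.7 and 90.1 CPM in knockdown libraries against 204, 154 and 165 CPM in control libraries. ANLN fell, with a log2 fold change of -1.04 (SE 0.1504, edgeR adjusted p = 0.0116). ECT2, which activates RhoA at the cell equator, had 69.3, 78.0 and 71.8 CPM in knockdown libraries against 128, 105 and 119 CPM in control libraries. ECT2 fell, with a log2 fold change of -0.69 (SE 0.134, edgeR adjusted p = 0.0256). PRC1, which bundles the microtubules of the central spindle, had 41.6, 46.5 and 42.0 CPM in knockdown libraries against 89.4, 135 and 70.2 CPM in control libraries. PRC1 fell, with a log2 fold change of -1.18 (SE 0.238, edgeR adjusted p = 0.0280); this symbol is the mitotic protein and not the Polycomb complex of the same abbreviation. RACGAP1, the centralspindlin subunit that recruits ECT2, was 1.61-fold lower.

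Of the 7 genes of chromosome structure 6 fell, with a median of -1.14. NCAPH (chr2:96335787-96373845, plus strand, GRCh38), the subunit that closes the condensin I ring, had 17.6, 21.1 and 18.2 CPM in knockdown libraries against 48.3, 59.8 and 51.8 CPM in control libraries. NCAPH fell, with a log2 fold change of -1.49 (SE 0.155, edgeR adjusted p = 0.00404). NCAPD2, a further condensin I subunit, had 168, 169 and 156 CPM in knockdown libraries against 349, 427 and 308 CPM in control libraries. NCAPD2 fell, with a log2 fold change of -1.14 (SE 0.157, edgeR adjusted p = 0.00976). NCAPG, the remaining condensin I subunit, was 2.28-fold lower. SMC2 and SMC4 are the ATPase pair shared by condensins I and II. SMC2 had 52.4, 58.5 and 53.6 CPM in knockdown libraries against 99.2, 101 and 94.3 CPM in control libraries, with both groups tight. SMC2 fell, with a log2 fold change of -0.84 (SE 0.121, edgeR adjusted p = 0.0114). SMC4 had 136, 149 and 142 CPM in knockdown libraries against 269, 176 and 273 CPM in control libraries, and here control library 2 was the lowest of its group. The log2 fold change of -0.75 did not pass (SE 0.190, edgeR adjusted p = 0.0545). TOP2A, the topoisomerase that untangles sister chromatids, had 147, 177 and 149 CPM in knockdown libraries against 435, 528 and 310.1 CPM in control libraries and was 2.69-fold lower. MKI67, which encodes the proliferation marker Ki-67, a coat protein of mitotic chromosomes, had 179, 177 and 181 CPM in knockdown libraries against 407, 509 and 262 CPM in control libraries and was 2.20-fold lower.

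Both transcription factor genes fell. FOXM1, which binds promoters of late cell cycle genes with MuvB, had 95.5, 99.2 and 92.8 CPM in knockdown libraries against 199, 306 and 194 CPM in control libraries. FOXM1 fell, with a log2 fold change of -1.28 (SE 0.200, edgeR adjusted p = 0.0141). MYBL2, or B-MYB, had 46.4, 48.1 and 53.5 CPM in knockdown libraries against 93.2, 224 and 88.9 CPM in control libraries. MYBL2 fell, with a log2 fold change of -1.46 (SE 0.356, edgeR adjusted p = 0.0493). For MYBL2, control library 2 was more than 2-fold above the other control libraries, and MYBL2 passed in 2 of the 6 fits with a library omitted.

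**Figure D3:**
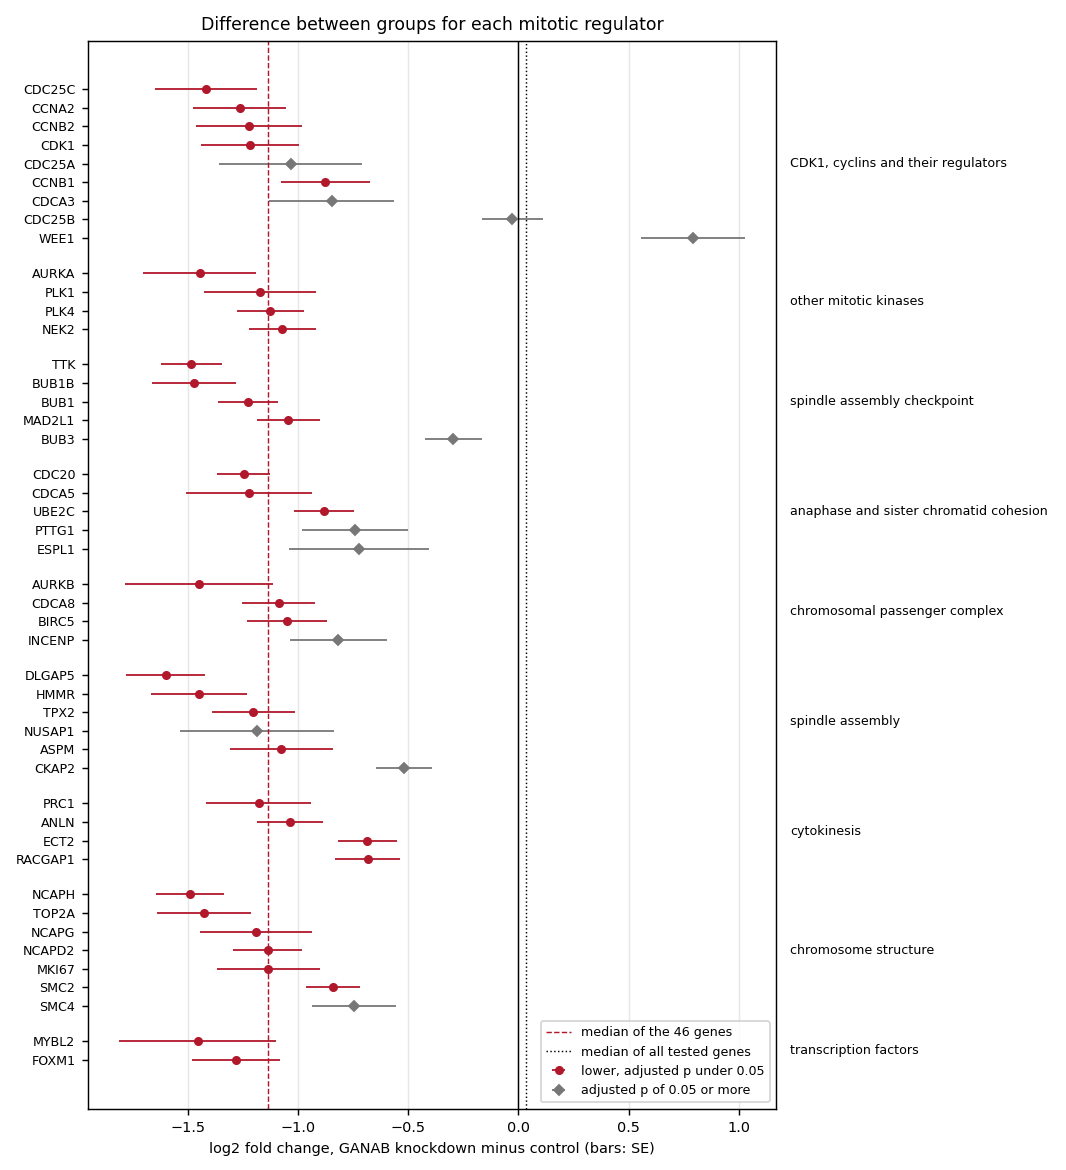
Log2 fold change (GANAB knockdown minus control) of each of the 46 genes with its SE, derived from the F statistic, grouped by role. Circles passed the edgeR test as lower and diamonds did not pass. The values run from -1.60 for DLGAP5 to 0.79 for WEE1, around a median of -1.14, against 0.03 for all tested genes.

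The genes differed far less among the knockdown libraries than among the controls. The median coefficient of variation of the 46 genes was 5.66% (1.13% to 22.5%) in the knockdown group and 25.1% (3.54% to 56.6%) in the control group. Relative to the mean of the knockdown libraries, the median gene stood at -0.05, 0.04 and 0.00 on the log2 scale in knockdown libraries 1, 2 and 3, and at 1.01, 1.37 and 0.84 in control libraries 1, 2 and 3. Control library 2 had the highest control value for 36 of the 46 genes, and control library 3 the lowest for 32. Every knockdown CPM lay below control library 1 for 44 genes, below control library 2 for 45 and below control library 3 for 44. The share of all tested genes with such a pattern was not counted for single control libraries. The summed level of the 46 genes was 2743, 2871 and 2798 CPM in knockdown libraries 1, 2 and 3, against 5260, 6717 and 4683 CPM in control libraries 1, 2 and 3. The lowest control sum was thus still well above the highest knockdown sum.

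**Figure D4:**
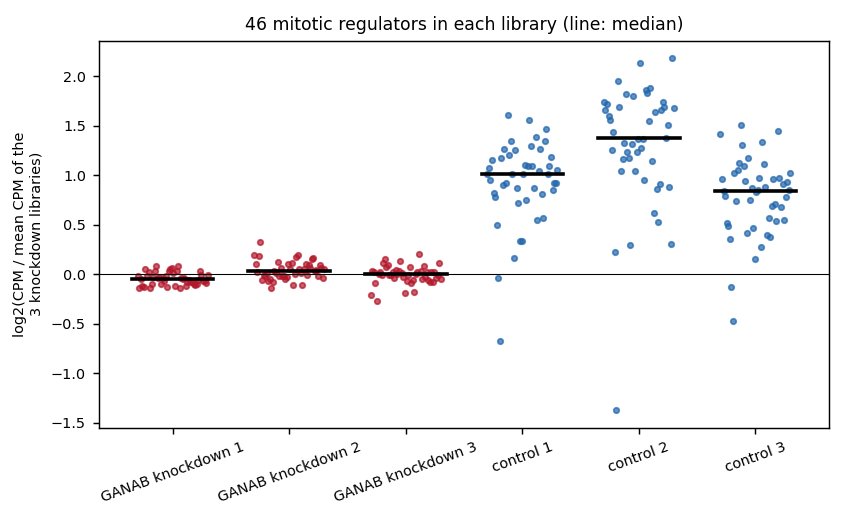
Log2 ratio of each gene's CPM in a library to its mean in the 3 knockdown libraries, for the 46 genes (points) with the median of each library (line). The medians of the control libraries are 1.01, 1.37 and 0.84, and the points of the knockdown libraries crowd around 0.

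The scale mattered for control library 1. On the deposited TPM scale the 46 genes summed to 1877, 1933 and 1881 TPM in knockdown libraries 1, 2 and 3, against 2073, 4280 and 3117 TPM in control libraries 1, 2 and 3. Every knockdown TPM lay below the value of control library 1 for 36 of the 46 genes. The same held for control library 2 in 45 genes and for control library 3 in 41. It held for all control libraries together in 35 genes, against 44 by CPM. Shares over all genes were not counted for these TPM patterns. CDC25A, CDCA3, BUB3, INCENP, PTTG1, ESPL1, CKAP2, PLK4 and RACGAP1 overlapped by TPM and not by CPM. Of these, PLK4 and RACGAP1 were among the genes that fell in the edgeR fit. Control library 1 was the one with the high share of mitochondrial ribosomal RNA. With TPM taken as log2(TPM + 1), limma-trend called 5 of the 46 lower and 0 higher, with a median of -0.80 beside 0.23 for all genes, and 90.7% of all calls were higher against 55.3% in the edgeR fit. With TMM scaling of the same TPM values, a setting chosen after seeing the data, 24 of the 46 were lower and WEE1 was higher, with a median of -0.996. When the mitochondrial ribosomal RNA counts were removed before edgeR, also chosen after seeing the data, 35 were lower and the median was -1.14, as with them.

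Levels per length, in TPM, had a similar order in both groups. UBE2C was the most abundant of the 46 genes, at 298 ± 1.39 TPM in knockdown and 486 ± 157 TPM in control libraries (SD, n = 3 each). PTTG1 followed, at 277 ± 8.90 TPM in knockdown and 425 ± 220.1 TPM in control libraries; it lay below UBE2C in every knockdown library, and the control values of the pair overlapped. The lowest were ASPM, at 2.98 ± 0.311 TPM in knockdown and 5.86 ± 3.03 TPM in control libraries, and CDC25A, at 2.70 ± 0.897 TPM in knockdown and 4.89 ± 3.48 TPM in control libraries. This lowest pair did not differ beyond their spread. WEE1 ranked 22 in knockdown and 44 in control libraries. Across the 46 genes the Spearman correlation of mean TPM in knockdown with mean TPM in control libraries was 0.92, and that of the log2 fold change with mean control CPM was 0.10. Both are descriptions across genes measured in the same 6 libraries.

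**Figure D5:**
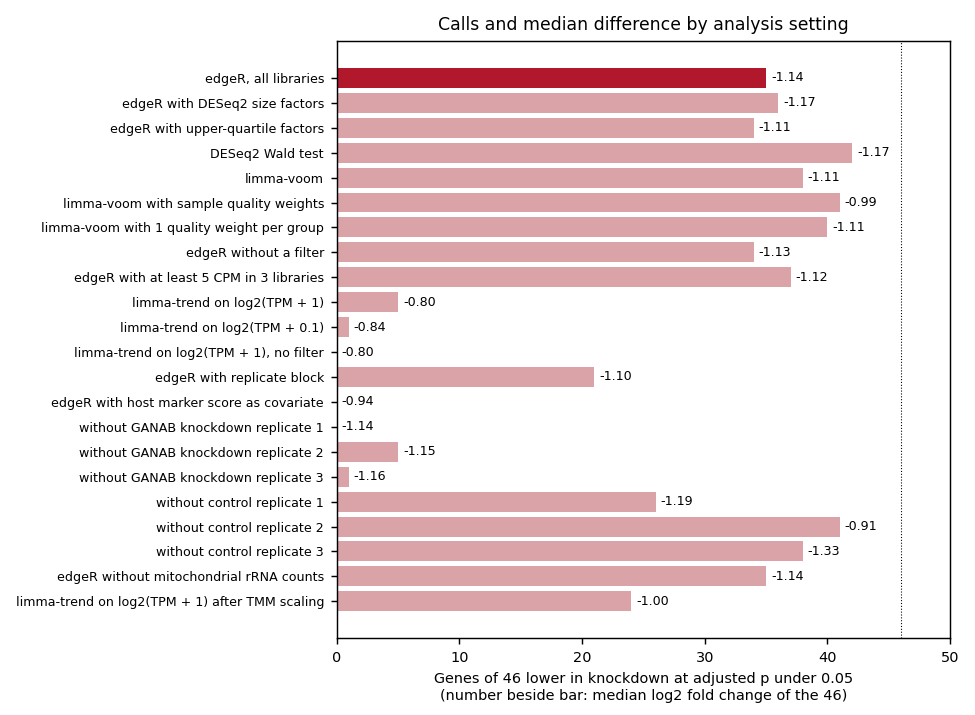
Number of the 46 genes called lower in GANAB knockdown libraries under each analysis setting (bars), with the median log2 fold change beside each bar; the dotted line marks 46. The count runs from 0 to 42, while the median runs from -1.33 to -0.80.

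Further genes of the same machinery were read against the 3.72% of all tested genes that were called lower. Of 17 APC/C subunits and regulators 1 fell and 0 rose, with a median log2 fold change of -0.17, a share near that background. The one was FBXO5, or EMI1, an inhibitor of the APC/C, with 17.9, 18.0 and 15.8 CPM in knockdown libraries against 34.8, 31.3 and 32.3 CPM in control libraries and a log2 fold change of -0.93 (SE 0.145, edgeR adjusted p = 0.0141). The structural subunit ANAPC2 had a log2 fold change of 0.50 and did not pass (edgeR adjusted p = 0.233), ANAPC4 stood at 0.11, and ANAPC11 (-0.50) and ANAPC10 (-0.74) were lower without passing. Of 16 genes for cohesin, its regulators and condensin II, 4 fell and 0 rose, with a median of -0.45. They were SGO2, or shugoshin 2 (-1.36), the cohesin ATPase SMC1A (-0.67), the condensin II subunit NCAPG2 (-0.72) and the cohesin subunit RAD21 (-0.67). STAG2, a cohesin subunit, stood at 0.64 and did not pass (edgeR adjusted p = 0.337).

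Of 16 further regulators of mitotic entry and exit 4 fell and 0 rose, with a median of -0.64. MASTL, or Greatwall, the kinase that restrains the phosphatase opposing CDK1, had 20.8, 21.1 and 22.0 CPM in knockdown libraries against 46.6, 48.6 and 49.8 CPM in control libraries and fell, with a log2 fold change of -1.18 (SE 0.127, edgeR adjusted p = 0.00429). GTSE1, a microtubule-binding regulator, stood at -1.10, CCNH, a subunit of the CDK-activating kinase, at -0.68, and BORA, an activator of Aurora A and PLK1, at -0.83. The phosphatase subunits PPP1CB (0.21) and PPP2R2D (0.09) had positive values that did not pass. Of 24 further spindle and cytokinesis genes 9 fell and 0 rose, with a median of -0.70. DEPDC1 (-1.41), the augmin subunit HAUS1 (-1.36) and the midbody protein CEP55 (-1.21) had the smallest p-values of that list. ROCK2, a kinase of the contractile ring (0.48), and NDEL1, a dynein regulator (0.47), were positive and did not pass. Of the 12 genes for MuvB, DREAM and partners of B-MYB, 0 passed in either direction with edgeR, with a median of -0.16. At an unadjusted p under 0.05, 2 of the 12 were lower and 2 higher, beside 2373 lower and 2676 higher of all 19430 genes. Among the 12, the pocket protein RBL1 stood at -0.74 (edgeR adjusted p = 0.0553). The MuvB subunit LIN37 stood at 0.94 (edgeR adjusted p = 0.105). TFDP1, the partner of E2F proteins, stood at -0.50 and the kinase DYRK1A at 0.70.

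The DNA replication genes, which act before mitosis, gave values close to those of the mitotic regulators. Of 35 such genes 26 fell and 0 rose, with a median of -1.08, beside 35 of 46 and -1.14 for the mitotic regulators. ORC1, a subunit of the origin recognition complex, had 9.88, 11.8 and 10.6 CPM in knockdown libraries against 30.6, 29.2 and 30.5 CPM in control libraries and fell, with a log2 fold change of -1.49 (SE 0.156, edgeR adjusted p = 0.00415). The replicative helicase subunits MCM6 and MCM5 stood at -1.01 and -1.11. No test of the difference between the lists was made.

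Of the summed marker lists of other cell types, those of smooth muscle (higher in knockdown) and macrophages (lower) separated the groups, and those of fibroblast, endothelial and urothelial markers overlapped. The 10 smooth muscle markers summed to 793 to 831 CPM in knockdown libraries, against 532, 241 and 472 CPM in control libraries 1, 2 and 3. Of the 10, 4 rose, namely MYH11, ACTA2, CNN1 and TAGLN. SMTN had a negative log2 fold change (-0.31) that did not pass. MYLK was higher in control libraries 1 and 3 (155 and 169 CPM) than in any knockdown library. The macrophage list summed to 76.7 to 78.0 CPM in knockdown libraries, against 121, 295 and 89.0 CPM in control libraries. CD68 carried most of it (log2 fold change -1.43, edgeR adjusted p = 0.0958), and PTPRC was at or under 1.25 CPM in every library. Of the macrophage list 0 genes passed in either direction. ADGRE1 and LYZ also had negative log2 fold changes, while CSF1R, PTPRC and ITGAM had positive ones. The endothelial list summed to 27.3 to 32.9 CPM in knockdown libraries, against 42.4, 116 and 24.9 CPM in control libraries, with PECAM1 under 1 CPM in every library. The fibroblast list summed to 267 to 269 CPM in knockdown libraries, against 285, 182 and 81.7 CPM in control libraries, and 1 gene of it, PDGFRB, rose. The neutrophil and lymphocyte lists summed to at most 0.484 and 0.825 CPM in knockdown libraries and 4.05 and 0.421 CPM in control libraries. The urothelial list summed to 362 to 389 CPM in knockdown libraries, against 240, 451 and 293 CPM in control libraries; KRT8 and KRT18 made up most of it, UPK1A rose, EPCAM and CDH1 were under 1 CPM, and UPK3A and KRT20 were at 0 TPM in all libraries. Control library 2, where the mitotic regulators were highest, had the lowest smooth muscle sum but the highest macrophage, endothelial and urothelial sums. Control library 3 lay below control library 1 in both the summed mitotic level and the smooth muscle sum. The part of other cells, or of mouse reads counted as human, in the fall of the mitotic regulators was not tested.

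Gene copies and overlaps were checked for the 46 genes. In the GENCODE 29 annotation (GRCh38) the genes lie on 17 chromosomes; 23 overlap no other gene, 11 overlap a gene on the same strand and 12 only genes on the opposite strand. Most named pseudogene copies were at or near 0 TPM. The highest, UBE2CP5, ranged from 1.59 to 7.95 TPM beside at least 296 TPM for UBE2C, and CDC20P1 reached 1.66 TPM beside at least 72.1 TPM for CDC20. The deposited counts are estimates, and how reads shared with such copies were divided was not checked.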

How the data were processed

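Bulk RNA-seq was measured in 6 libraries, from 200 ng of total RNA each per the labels' protocols. The submitters' processing notes name fastp, Salmon, DESeq2 and GRCh38, without versions or roles; whether mouse reads were separated is not stated in the sources used here. The authors deposited estimated counts per gene, unnormalized and already whole, for 21503 genes, and TPM (scaled for transcript length and library total) for 60233 genes. Group and number in the column names identified the samples, although the knockdown columns are headed as knockout.

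Counts were tested with edgeR 4.0.16 in R 4.3.3 (filterByExpr, which removed 2073 genes and left 19430; TMM; quasi-likelihood F test, 2-sided, Benjamini-Hochberg adjustment over all tested genes, threshold 0.05, no covariate). A single count was worth 0.0236 CPM in the deepest and 0.0823 CPM in the shallowest library, and no member had fewer than 112 counts in any library. The SE printed with a log2 fold change is the absolute value of that change divided by the square root of its F statistic. Alternatives used limma 3.58.1 and DESeq2 1.42.0, and the closing section gives their effect. The edgeR test was also run on simulated counts with the same spread in both groups. That check says nothing about the unequal spread of the real groups. Pairs of libraries within a group differed by more than sampling noise, with a chi-square per degree of freedom of 6.06 to 7.72 in the knockdown and 130 to 513 in the control group.

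The 46 genes, the pathway and marker lists and the tests were chosen with earlier results of these data known, so lists are described by counts and medians only. Full statistics are given for the 3 genes of each role with the smallest p and for all genes that did not pass, and pathway lists name up to 3 genes by p and up to 2 that went against their list. RAD21, BORA and single genes of the marker lists were named after their values were seen. Promoters and their sequences are from RefSeq (GRCh38.p14), coordinates of genes from GENCODE 29.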

Additional observations from a re-analysis of the deposited data

How the results depend on the processing

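The direction of the 35 genes that fell was kept in all 735 comparisons of a gene with an alternative, and 464 of these passed the threshold again while 271 did not. For each result where an alternative moved the value, the cause was not tested. Leaving out a library leaves fewer samples, and the number of the 46 called lower went down in some of these fits and up in others. In the edgeR fit 722 of all genes were lower and 892 higher, and 35 of the 46 mitotic regulators were lower and 0 higher. With 1 quality weight per group, limma-voom called 40 of the 46 lower and 0 higher, and 907 of all genes lower and 714 higher. By DESeq2 all genes gave 1768 lower and 1908 higher, and 1 of the 46 was higher. By limma-voom 1386 of all genes were higher and 1 of the 46, and with sample quality weights 2013 of all genes were lower, 1703 higher and 1 of the 46 higher; the gene was WEE1 in each. With limma-trend on log2(TPM + 1) 5 of the 46 were lower (median -0.80) and 77 of all genes, and with log2(TPM + 0.1) the values were 1 of the 46, 56 of all genes lower and 470 higher. Without a filter the TPM values gave 0 of the 46 (median -0.80), 3 of all genes lower and 43 higher. With the host marker score as covariate, which itself separated the groups, 0 of the 46 were lower, and 1 of all genes was lower and 0 higher. TPM after TMM scaling, chosen after seeing the data, gave 1 of the 46 higher and 409 of all genes lower.

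Leaving out each library in turn gave 0 to 41 of the 46 lower and 0 to 1 higher, a median of -1.33 to -0.91, and 9 to 2796 of all genes lower and 53 to 2808 higher. None of the 46 passed in all 6 of these fits and 41 passed in at least 1. Of the 35 genes that fell, 26 passed without control library 1, and 35 passed without control library 2 and without control library 3. The correlations of deviations of same-numbered libraries were 0.002, 0.017 and 0.022, so the numbers were not taken to pair the samples; with the replicate block 21 of the 46 were lower, and 214 of all genes were lower and 352 higher.

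CDC25B had a positive log2 fold change with quality weights (0.0484), with log2(TPM + 1) with and without the filter (0.2215 each), with log2(TPM + 0.1) (0.2239), with the host score (0.0785) and after TMM scaling of TPM (0.0192), and it ranged from -0.1531 (without control library 3) to 0.0895 (without control library 2) when libraries were left out. ANAPC4, at 0.11 in the edgeR fit, was at -0.0724 with the host score and ranged from -0.0098 (without control library 2) to 0.1826 (without knockdown library 1). None of these values passed. All 46 genes had at least 112 counts in every library, and 3 libraries a group limit the precision of every fold change.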
